A study of Mus musculus with 6 samples.

Results

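The inhibitory checkpoint receptors were followed in bulk RNA sequencing of mouse OT-I CD8+ T cells, a set of 9 genes listed by name: *Pdcd1*, *Havcr2*, *Lag3*, *Ctla4*, *Btla*, *Tigit*, *Cd160*, *Cd101*, and *Vsir*. Each matched 1 row of the deposited counts, so that the receptors are 9 of the 57126 genes counted, and all 9 were among the 26154 genes that had at least 1 count in at least 3 samples and were tested. CD8+ T cells were taken from lymph nodes and spleens of OT-I transgenic mice, which were bred in-house and carry a T cell receptor for an ovalbumin peptide presented by H-2Kb. They were stimulated with nanoparticle artificial antigen-presenting cells (nano-aAPCs), iron oxide particles that carry this peptide on H-2Kb together with an antibody to CD28. The strain background, age, and number of mice are not given in the sources used here.

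The cytokine in the medium of the 3 TEff samples was IL-2. The 3 TRM-like samples received IL-2 as well, together with IL-15 and with TGF-β, and RNA was taken from both groups on day 6. By the expansion methods, IL-2 was used at 5 ng/ml throughout, and the TRM-like medium also held IL-15 at 100 ng/ml and TGF-β at 5 ng/ml. IL-15 and TGF-β were added together, so their separate parts cannot be told apart, and the TRM-like cells were cultured cells that had not resided in a tissue. No source says whether the samples of a group came from separate mice or cultures, so the p-values measure only the spread between these samples, which may be technical.

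Inhibitory receptors are surface proteins that dampen signalling from the T cell receptor and from costimulatory receptors. Many of them carry tyrosine motifs in the cytoplasmic tail that recruit phosphatases, and others, such as CTLA-4, compete with a costimulatory receptor for its ligands. A number of these receptors are induced on T cells by activation, several of them are held at high levels on exhausted T cells, and tissue-resident memory T cells are known to carry some of them as well.

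Of the 9 receptor genes, 3 were lower in TRM-like than in TEff cells, 1 was higher, and 5 did not pass the test. A gene passed where its log2 fold change exceeded 0.58 in either direction and its p from the quasi-likelihood test of edgeR, adjusted over all genes tested by the Benjamini-Hochberg method, was below 0.05. *Havcr2*, *Btla*, and *Ctla4* fell, and *Cd160* rose. Over all genes tested, 3.01% were called, 1.48% as lower and 1.52% as higher in TRM-like cells. The median log2 fold change of the 9 receptors was -0.49, beside 0.02 over all genes tested. In 6 of the 9 receptor genes, the 3 samples of one group all lay on one side of the 3 samples of the other, with the TRM-like samples below in 4 and above in 2. Such a separation was found in 20.3% of all genes tested, in 9.71% with the TRM-like samples below and in 10.6% with them above.

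The libraries held 18319013 to 23622621 counts on genes. TRM-like replicate 3 stood apart from TRM-like replicates 1 and 2 in many genes, and the calls over all genes depended on it: without it, 14.0% of the genes were called (6.38% higher and 7.67% lower in TRM-like cells), and with it as the only TRM-like sample, 3.24% (1.33% higher and 1.91% lower). TRM-like replicates 1 and 2 also had counts on 35130 and 35559 genes, against 24229 to 24908 in the other 4 samples, but over the 28687 genes at 0 in those 4 samples their mean levels were 0.029 and 0.0328 CPM. The receptor results are therefore given with and without TRM-like replicate 3. Without it, *Havcr2*, *Btla*, and *Ctla4* were the 3 receptors called lower, and *Cd160*, *Cd101*, and *Lag3* the 3 called higher. With it as the only TRM-like sample, 4 were called lower, *Pdcd1* being the added one, and 0 higher. The CD8 T cell markers, 8 genes including *Cd8a* and *Cd3e*, were present in every sample, with summed levels of 2616 to 2796 CPM in TEff and 3101 to 4290 CPM in TRM-like cells. CPM stands for counts scaled to the effective size of each library. Markers of other cells were lower but not all near 0. Of 5 CD4 and regulatory T cell markers, *Cd4* and *Cd40lg* were under 1 CPM in every sample and *Foxp3* reached 1.34 CPM, while *Zbtb7b* was at 16.9 to 40.2 CPM and fell and *Ikzf4* was at 3.85 to 22.2 CPM and rose. Their sum was 40.9 to 45.3 CPM in TEff and 39.03 to 41.98 CPM in TRM-like samples. Of 5 B cell markers, 3 were under 1 CPM in every sample, and the sum, mostly *Cd79b*, was 5.94 to 6.78 and 7.29 to 10.9 CPM. Of 9 myeloid and dendritic cell markers, 8 were under 1 CPM in every sample, and the sum, mostly *Itgax*, was 4.801 to 10.3 and 0.83 to 6.45 CPM. The part of these genes in the receptor results was not tested. In bulk RNA, fewer cells with a transcript and less of that transcript per cell cannot be told apart.

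The 250 bases before the annotated start of transcription are given for the 4 receptor genes that passed the test, 3 that fell and 1 that rose, so that they can be read side by side. They are from the GRCm39 genome, 5′ to 3′ on the strand of the gene, ahead of the start of the canonical GENCODE transcript, which for *Ctla4* and *Cd160* lies inside the full annotated span of the gene. Capitals mark every match, on either strand, to CAGAC (a SMAD-type motif, as bound by the factors that act below the TGF-β receptor), TGTGGT (a RUNX-type motif), or TTCNNNGAA (a STAT-type motif, as bound by the factors below the IL-2 and IL-15 receptors).
*Havcr2*, chr11:46345423-46345672, plus strand: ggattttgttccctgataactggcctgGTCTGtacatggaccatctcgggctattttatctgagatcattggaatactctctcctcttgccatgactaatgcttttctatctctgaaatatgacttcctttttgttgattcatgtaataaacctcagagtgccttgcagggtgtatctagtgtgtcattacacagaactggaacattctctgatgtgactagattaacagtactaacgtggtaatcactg
*Btla*, chr16:45044225-45044474, plus strand: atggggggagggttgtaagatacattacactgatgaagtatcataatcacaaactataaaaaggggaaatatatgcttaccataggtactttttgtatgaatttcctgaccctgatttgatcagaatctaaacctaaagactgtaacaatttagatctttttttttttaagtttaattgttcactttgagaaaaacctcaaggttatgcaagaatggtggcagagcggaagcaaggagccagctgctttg
*Ctla4*, chr1:60947934-60948183, plus strand: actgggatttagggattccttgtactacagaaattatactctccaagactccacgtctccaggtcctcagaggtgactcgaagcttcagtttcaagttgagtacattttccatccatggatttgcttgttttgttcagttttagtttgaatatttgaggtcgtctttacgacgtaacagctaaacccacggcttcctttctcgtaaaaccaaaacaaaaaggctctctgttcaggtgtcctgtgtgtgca
*Cd160*, chr3:96721849-96722098, minus strand: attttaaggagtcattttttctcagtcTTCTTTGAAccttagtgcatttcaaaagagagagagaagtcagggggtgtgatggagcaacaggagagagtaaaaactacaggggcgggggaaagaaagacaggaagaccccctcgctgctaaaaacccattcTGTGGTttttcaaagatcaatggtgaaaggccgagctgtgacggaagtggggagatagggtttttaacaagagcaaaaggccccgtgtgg
The *Havcr2* window held 1 match to CAGAC, 223 bases before the start. Neither the *Btla* nor the *Ctla4* window held a match to any of the 3 motifs. The *Cd160* window held 1 match to TTCNNNGAA, 223 bases before the start, and 1 to TGTGGT, 90 bases before it. Of the other 5 receptors, *Lag3* had 2 matches to CAGAC and *Vsir* had 1, *Tigit* and *Cd101* each had 1 match to TGTGGT, and *Pdcd1* had none. In the same window of 21770 protein-coding genes, CAGAC was found in 41.3%, TGTGGT in 13%, and TTCNNNGAA in 7.7%, beside 3, 3, and 1 of the 9 receptors. A match of letters is a description and not a binding site, and these windows were not tested for binding.

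*Havcr2* (ENSMUSG00000020399, chromosome 11, 46345673 to 46374149, plus strand) encodes TIM-3, a receptor known for marking terminally exhausted CD8+ T cells and for binding galectin-9 and CEACAM1. It was at 22.0, 19.6, and 23.9 CPM in TEff replicates 1 to 3 and at 4.89, 3.98, and 3.74 CPM in TRM-like replicates 1 to 3. Every TRM-like sample lay far below every TEff sample, and TRM-like replicate 3 lay close to the other two. The fall was 5.19-fold, a log2 fold change of -2.38 (SE 0.17, 95% interval -2.76 to -1.99, adjusted p = 0.000209 from edgeR). It was past the threshold in all 18 alternative settings, with log2 fold changes of -2.54 to -2.29. These settings include the main fit read by adjusted p alone, in which a called gene could not lose its call.

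*Btla* (ENSMUSG00000052013, chromosome 16, 45044475 to 45078033, plus strand) encodes BTLA, which binds HVEM, the product of *Tnfrsf14*. Its levels were 78.8, 82.1, and 66.9 CPM in TEff and 35.5, 30.7, and 32.9 CPM in TRM-like samples. The TRM-like samples thus formed a narrow range that did not reach the lowest TEff sample. *Btla* fell 2.30-fold, a log2 fold change of -1.20 (SE 0.14, 95% interval -1.51 to -0.89, adjusted p = 0.00204 from edgeR). The call held in all 18 alternative settings, between -1.27 and -1.14.

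*Ctla4* (ENSMUSG00000026011, chromosome 1, 60926159 to 60954991, plus strand) encodes CTLA-4, which binds CD80 and CD86 in competition with CD28. It was at 209, 244, and 204 CPM in TEff samples and at 91.9, 107, and 92.3 CPM in TRM-like samples. Again no sample of one group reached the other. *Ctla4* fell 2.26-fold, a log2 fold change of -1.18 (SE 0.14, 95% interval -1.49 to -0.86, adjusted p = 0.00263 from edgeR). Its log2 fold change was -1.25 to -1.09 over the 18 alternatives, past the threshold in each of them. These 3 falls did not depend on TRM-like replicate 3. Its own log2 levels differed from the mean of TRM-like replicates 1 and 2 by -0.25 for *Havcr2*, -0.01 for *Btla*, and -0.11 for *Ctla4*. *Ctla4* overlaps the pseudogene *Rpl18-ps1* on the same strand, with no exon bases in common, and *Rpl18-ps1* was at 26.9 to 44.8 CPM.

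**Figure D1:**
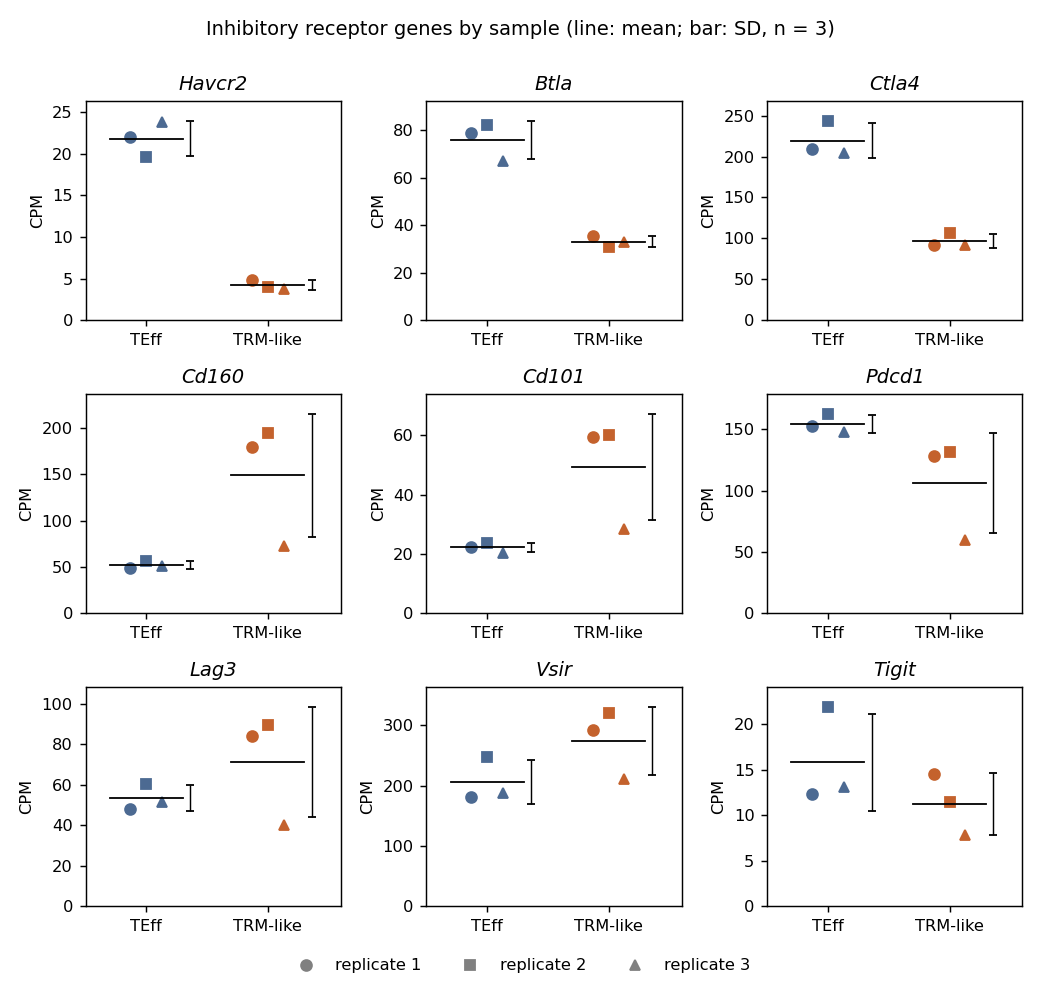
Levels in CPM (y axes, each from 0) of the 9 receptor genes in the 3 TEff (blue) and 3 TRM-like (orange) samples, with 1 point a sample and its shape giving the replicate, a line at the mean, and a bar for the SD. For *Havcr2*, *Btla*, and *Ctla4*, the 3 TRM-like samples sit together below TEff, while for *Cd160*, *Cd101*, *Pdcd1*, and *Lag3*, TRM-like replicate 3 (triangle) lies far below TRM-like replicates 1 and 2.

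*Cd160* (ENSMUSG00000038304, chromosome 3, 96706079 to 96736667, minus strand) encodes CD160, a lipid-anchored receptor that, like BTLA, binds HVEM and is found on natural killer (NK) cells and activated CD8+ T cells. It was at 48.8, 56.4, and 50.9 CPM in TEff samples and at 180, 194, and 72.3 CPM in TRM-like samples. All 3 TRM-like samples were above TEff, but TRM-like replicate 3 was much nearer to TEff than to the other TRM-like samples. *Cd160* rose 2.86-fold, a log2 fold change of 1.51 (SE 0.32, 95% interval 0.79 to 2.24, adjusted p = 0.0393 from edgeR).

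The call on *Cd160* was past the threshold in 9 of the 18 alternatives, with log2 fold changes of 0.47 to 1.84 and no change of direction. These 9 include the main fit read by adjusted p alone. Without TRM-like replicate 3, its log2 fold change was 1.84 (adjusted p = 1.09e-07 from edgeR), and with TRM-like replicate 3 as the only TRM-like sample, it was 0.47 (adjusted p = 0.160). Leaving out any other single library ended the call. The log2 fold changes were then 1.48, 1.58, and 1.51 without TEff replicates 1, 2, and 3, and 1.36 and 1.27 without TRM-like replicates 1 and 2, with adjusted p of 0.106 to 0.203. The 4 NK cell markers (*Ncr1*, *Klrb1c*, *Klra8*, and *Klre1*) summed to 24.7 to 44.0 CPM in TEff samples and to 22.6, 21.4, and 4.75 CPM in TRM-like replicates 1, 2, and 3, with *Ncr1* and *Klra8* under 1 CPM in every sample. Within the TRM-like group, their sum was thus lowest in the sample with the least *Cd160*. Every TEff sample, however, had less *Cd160* and a higher sum than any TRM-like sample. The part of these markers in the *Cd160* result was not tested. *Cd160* shares 68 exon bases with *Pdzk1* on the opposite strand, which was at no more than 0.57 CPM.

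*Cd101* (ENSMUSG00000086564, chromosome 3, 100899506 to 100936872, minus strand) encodes CD101, a surface protein of the immunoglobulin superfamily found on some exhausted and resident T cells. It was at 22.4, 23.6, and 20.4 CPM in TEff and 59.2, 59.98, and 28.5 CPM in TRM-like samples. All TRM-like samples were above all TEff samples, with TRM-like replicate 3 again the lowest of its group. The log2 fold change of 1.15 (SE 0.26, 95% interval 0.56 to 1.74) did not pass the test, with an adjusted p of 0.0529 from edgeR. It was past the threshold in 7 of the 18 alternatives. Without TRM-like replicate 3 it was 1.42 (adjusted p = 1.43e-06 from edgeR), and with that sample alone 0.36 (adjusted p = 0.313).

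*Pdcd1* (ENSMUSG00000026285, chromosome 1, 93966027 to 93980312, minus strand) encodes PD-1, the receptor for PD-L1 and PD-L2. Its levels were 153, 163, and 148 CPM in TEff samples and 128, 132, and 59.4 CPM in TRM-like samples. All 3 TRM-like samples lay below TEff, TRM-like replicates 1 and 2 by little and TRM-like replicate 3 by far more. The log2 fold change of -0.54 (SE 0.27, 95% interval -1.14 to 0.07, adjusted p = 0.408 from edgeR) did not pass the test. It was -0.26 without TRM-like replicate 3 and -1.38 (adjusted p = 0.00335) with that sample alone, which is past the threshold.

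*Lag3* (ENSMUSG00000030124, chromosome 6, 124881320 to 124888765, minus strand) encodes LAG-3, a relative of CD4 that binds MHC class II and fibrinogen-like protein. It was at 48.2, 60.6, and 51.6 CPM in TEff samples and at 84.3, 89.6, and 39.98 CPM in TRM-like samples. TRM-like replicates 1 and 2 were above every TEff sample and TRM-like replicate 3 was below every one, so the groups overlapped. The log2 fold change was 0.42 (SE 0.27, 95% interval -0.20 to 1.03, adjusted p = 0.552 from edgeR). Without TRM-like replicate 3 it was 0.69 and past the threshold (adjusted p = 0.00101), and with that sample alone its sign turned to -0.42 (adjusted p = 0.290).

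*Vsir* (ENSMUSG00000020101, chromosome 10, 60182630 to 60208463, plus strand) encodes VISTA, which acts both as a receptor and as a ligand. It was at 181, 248, and 188 CPM in TEff and at 291, 319.5, and 211 CPM in TRM-like samples. TRM-like replicate 3 lay within the TEff range and the other TRM-like samples above it. The log2 fold change of 0.41 (SE 0.19, 95% interval -0.03 to 0.85, adjusted p = 0.371 from edgeR) did not pass the test, and it passed in none of the 18 alternatives, which gave 0.03 to 0.57. *Vsir* lies inside the span of *Cdh23* on the opposite strand, with no exon bases in common, and *Cdh23* was at 2.63 to 6.72 CPM.

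*Tigit* (ENSMUSG00000071552, chromosome 16, 43469100 to 43484509, minus strand) encodes TIGIT, which competes with the costimulatory receptor CD226 for CD155, the product of *Pvr*. It was at 12.4, 21.9, and 13.2 CPM in TEff samples and at 14.5, 11.4, and 7.79 CPM in TRM-like samples. The groups overlapped, and TEff replicate 2 was the only TEff sample above all TRM-like samples. Its log2 fold change of -0.49 (SE 0.28, 95% interval -1.12 to 0.14, adjusted p = 0.489 from edgeR) did not pass the test. It passed in none of the 18 alternatives, which gave -1.02 to -0.18. It was -0.29 without TRM-like replicate 3 and -1.02 with that sample as the only TRM-like sample.

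**Figure D2:**
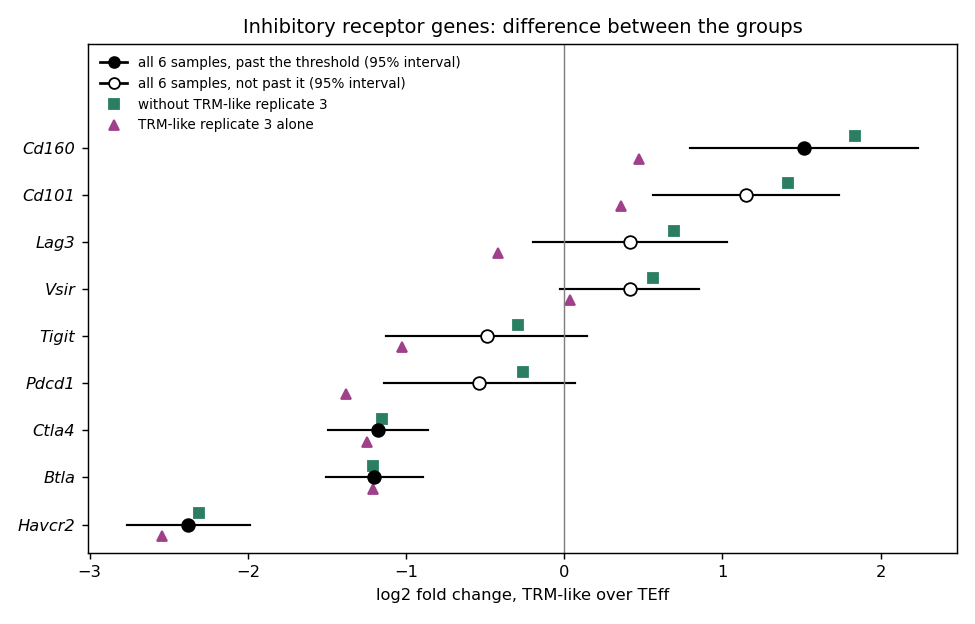
Log2 fold change of TRM-like over TEff (x axis) for the 9 receptor genes, with circles for all 6 samples (filled where past the threshold), lines for the 95% interval, squares for the fit without TRM-like replicate 3, and triangles for the fit with TRM-like replicate 3 as the only TRM-like sample. The 3 symbols lie close together for *Havcr2*, *Btla*, and *Ctla4*, from -2.54 to -1.15, and lie on either side of 0 for *Lag3*, at -0.42 and 0.69.

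Levels of different receptors were compared per length, as TPM (counts per base of the gene, scaled so that every sample has an equal total), computed from the counts and the deposited gene lengths. In TEff cells, *Ctla4* had the highest level, 150 ± 14.4 TPM (SD, n = 3), ahead of *Pdcd1* at 106 ± 5.48 TPM, *Vsir* at 55.1 ± 9.47 TPM, and *Lag3* at 35.3 ± 3.98 TPM. Then came *Btla* at 30.9 ± 3.56 TPM, *Cd160* at 26.1 ± 1.79 TPM, *Tigit* at 22.8 ± 7.49 TPM, *Havcr2* at 10.6 ± 1.02 TPM, and *Cd101* at 8.81 ± 0.71 TPM. The ranges of neighbours in this order overlapped for *Lag3* and *Btla*, *Btla* and *Cd160*, and *Cd160* and *Tigit*, and were apart for the rest. The order of *Havcr2* and *Cd101* rests on their deposited lengths of 2721 and 3330 bases. The later annotation used for the coordinates gives 4877 and 4669 exon bases, and their mean TEff levels were 21.8 and 22.2 CPM.

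In TRM-like cells, no single receptor led. *Vsir* at 70.7 ± 8.34 TPM (SD, n = 3), *Cd160* at 70.6 ± 27.3 TPM, *Pdcd1* at 69.5 ± 22.2 TPM, and *Ctla4* at 64.5 ± 3.97 TPM had overlapping ranges between neighbours. *Lag3* followed at 44.9 ± 14.2 TPM, with no overlap with *Ctla4* above it or *Cd101* below it. *Cd101* at 18.7 ± 5.61 TPM, *Tigit* at 15.6 ± 4.06 TPM, and *Btla* at 13.1 ± 1.81 TPM overlapped in this order, and *Havcr2* was lowest at 1.99 ± 0.28 TPM, below every *Btla* value. The larger SDs of *Cd160*, *Pdcd1*, and *Lag3* come from TRM-like replicate 3, with 39.2, 43.9, and 28.6 TPM for the 3 genes.

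**Figure D3:**
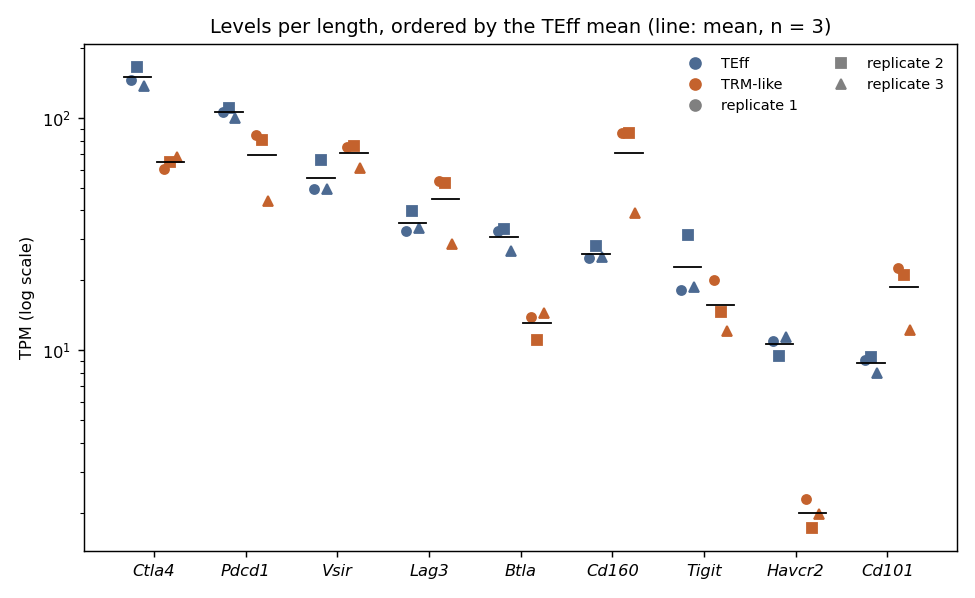
Levels of the 9 receptor genes in TPM (y axis, log scale) in TEff (blue) and TRM-like (orange) samples, ordered by the TEff mean, with 1 point a sample, its shape giving the replicate, and a line at the mean of 3. TEff means step down from *Ctla4* at 150 TPM to *Cd101* at 8.81 TPM. The TRM-like means of *Vsir*, *Cd160*, *Pdcd1*, and *Ctla4* lie within 64.5 to 70.7 TPM, and that of *Havcr2* is lowest at 1.99 TPM. Single TRM-like samples spread wider, from 39.2 to 86.4 TPM for *Cd160* and from 43.9 to 84.2 TPM for *Pdcd1*.

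Summed over the 9 receptors, the level was 431, 494, and 411 TPM in TEff samples and 418, 409, and 282 TPM in TRM-like samples. TRM-like replicates 1 and 2 were thus at or near the lowest TEff sample, and TRM-like replicate 3 was below them. The makeup of the sum is given by the shares of single receptors. *Ctla4* made up 33.9%, 33.6%, and 33.5% of it in TEff samples and 14.4%, 15.9%, and 24.2% in TRM-like samples. The share of *Cd160* was 5.79%, 5.69%, and 6.11% in TEff samples and 20.7%, 21.1%, and 13.9% in TRM-like samples. In both shares, TRM-like replicate 3 lay between TEff and the other TRM-like samples, and the groups did not overlap. These sums and shares are descriptions of the samples and were given no test.

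*Btla* and *Cd160*, whose products share HVEM as a ligand, moved in opposite directions. The ratio of *Cd160* to *Btla* in TPM was 0.763, 0.847, and 0.937 in TEff samples and 6.24, 7.79, and 2.71 in TRM-like samples. By these values, *Btla* was the more abundant of the pair in every TEff sample and *Cd160* in every TRM-like sample. The order in TEff rests on the deposited lengths, 2642 bases for *Cd160* and 3254 for *Btla*, where the later annotation gives 2653 and 3915 exon bases. The ratio of *Pdcd1* to *Havcr2* was 9.78, 11.7, and 8.73 in TEff and 36.95, 46.7, and 22.4 in TRM-like samples. *Pdcd1* thus exceeded *Havcr2* in all 6 samples, and by more in each TRM-like sample than in any TEff sample.

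Partner genes were described next. *Cd226* and *Cd28* encode costimulatory receptors that share ligands with the inhibitory receptors, *Icos* is a relative of *Cd28*, and *Tnfsf14* encodes a ligand of HVEM. *Cd226*, the activating counterpart of *Tigit*, was at 43.8, 65.7, and 44.5 CPM in TEff and 175, 177, and 81.9 CPM in TRM-like samples. It rose with a log2 fold change of 1.497 (SE 0.30, adjusted p = 0.0306 from edgeR). Of the 6 fits that each left out a library, only the one without TRM-like replicate 3 kept this call (1.77). The other 5, without TEff replicates 1, 2, or 3 or TRM-like replicates 1 or 2, gave 1.32 to 1.71 with adjusted p of 0.0744 to 0.182. The ratio of *Cd226* to *Tigit* in TPM was 0.722, 0.613, and 0.692 in TEff and 2.46, 3.17, and 2.15 in TRM-like samples, with no overlap.

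*Cd28*, the costimulatory receptor that shares CD80 and CD86 with CTLA-4, was at 203, 209.9, and 184 CPM in TEff and 146, 139, and 104 CPM in TRM-like samples, with a log2 fold change of -0.62 (SE 0.16) that did not pass the test (adjusted p = 0.0881 from edgeR). Of the 18 alternatives, 5 put it past the threshold, but 0 of the 6 fits that each left out a library did. With TRM-like replicate 3 as the only TRM-like sample it was -0.94. The ratio of *Cd28* to *Ctla4* in TPM was 0.431, 0.383, and 0.401 in TEff and 0.708, 0.58, and 0.501 in TRM-like samples, so that *Ctla4* remained the more abundant in all 6. *Icos*, the inducible relative of *Cd28*, fell by 0.94 on the log2 scale (SE 0.12, adjusted p = 0.00408 from edgeR), from 83.6, 80.1, and 86.4 CPM to 40.9, 46.4, and 43.1 CPM. *Tnfsf14*, which encodes LIGHT, another ligand of HVEM, had a log2 fold change of -0.40 that did not pass (adjusted p = 0.620 from edgeR), and it was -1.35 and past the threshold with TRM-like replicate 3 alone.

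Of 15 genes for ligands of the 9 receptors, 13 were tested, 3 were higher in TRM-like cells, and none was lower, with a median log2 fold change of 0.24. The share called was 23.1%, beside 3.01% over all genes tested, and the lists were chosen with earlier results of these data known. *Lgals3*, which encodes galectin-3, a ligand of LAG-3, rose from 111, 144, and 143 CPM in TEff to 657, 746, and 456 CPM in TRM-like samples. Its log2 fold change was 2.22 (SE 0.21, adjusted p = 0.000952 from edgeR), past the threshold in all 18 alternatives. *Lgals9*, which encodes galectin-9, a ligand of TIM-3, was at 52.8, 60.1, and 54.8 CPM in TEff and 105, 119.7, and 80.1 CPM in TRM-like samples, a rise of 0.86 (SE 0.17, adjusted p = 0.0262 from edgeR). Thus *Lgals9* was higher in the cells with less *Havcr2*. The call on *Lgals9* held without TRM-like replicate 3 (1.00) and was lost without any other single library (0.73 to 0.92, adjusted p of 0.0903 to 0.173) and with TRM-like replicate 3 alone (0.52).

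*Nectin3*, which encodes a nectin known to bind TIGIT, also passed the test (log2 fold change 3.09, SE 0.67, adjusted p = 0.0449 from edgeR), but only at 0.05 to 0.09 CPM in TEff and 0.31 to 0.97 CPM in TRM-like samples. It kept the call in 2 of the 6 fits that left out a library, those without TRM-like replicates 1 and 3 (2.59 without replicate 3), and lost it without TEff replicates 1, 2, or 3 or TRM-like replicate 2 (2.94 to 3.40). The genes of the PD-1 ligands, *Cd274* and *Pdcd1lg2*, had log2 fold changes of 0.46 and 0.25 (adjusted p = 0.399 and 0.734 from edgeR). *Cd80* was at 22.5, 27.0, and 23.9 CPM in TEff and 15.5, 14.9, and 9.45 CPM in TRM-like samples. Its log2 fold change of -0.88 (SE 0.20) did not pass the test (adjusted p = 0.0535 from edgeR). Among the tested ligand genes, 10 log2 fold changes were above 0 and 3 below. *Fgl1* and *Igsf11* had too few samples with a count to be tested.

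Of 17 genes of the signalling machinery at or below inhibitory receptors, 3 were higher and 2 lower in TRM-like cells, with a median of -0.07. These calls were 29.4% of the list, beside 3.01% over all genes tested. *Inpp5d*, which encodes the lipid phosphatase SHIP-1, rose by 0.93 on the log2 scale (SE 0.13, adjusted p = 0.00487 from edgeR), from 134, 119, and 124 CPM to 247, 247, and 227 CPM. The adaptor gene *Dok1* rose by 0.99 (SE 0.19, adjusted p = 0.0274 from edgeR) while its relative *Dok2* fell by 0.94 (SE 0.13, adjusted p = 0.00557 from edgeR). *Dgka*, which encodes a diacylglycerol kinase that limits T cell receptor signalling, fell by 0.96 (SE 0.15, adjusted p = 0.0109 from edgeR), and the kinase gene *Fyn* rose by 0.81 (SE 0.16, adjusted p = 0.0313 from edgeR).

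These calls varied in how they stood up to leaving out a library. *Inpp5d* and *Dok2* each lost the call only without TEff replicate 3 (0.94 and -0.93). *Dgka* lost it without TEff replicates 1 or 3 or TRM-like replicate 1 (-1.02 to -0.94). *Dok1* and *Fyn* kept it only without TRM-like replicate 3 (1.18 and 0.91), and lost it without TEff replicates 1, 2, or 3 or TRM-like replicates 1 or 2, with adjusted p of 0.0901 to 0.156 and 0.0556 to 0.201. The phosphatase genes *Ptpn6* (SHP-1) and *Ptpn11* (SHP-2), whose products dock on the tails of PD-1 and BTLA, had log2 fold changes of 0.17 and -0.13 that did not pass the test (adjusted p = 0.627 and 0.813 from edgeR).

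Of 19 transcription factor genes tied to inhibitory receptor expression, 18 were tested, 1 was higher and 1 lower, with a median of -0.19. That is 11.1% of those tested, beside 3.01% over all genes tested. *Maf*, which encodes c-MAF, rose from 1.28, 1.62, and 1.38 CPM in TEff to 12.8, 12.3, and 6.18 CPM in TRM-like samples, a log2 fold change of 2.87 (SE 0.31, adjusted p = 0.00188 from edgeR). *Eomes*, a T-box factor of effector and exhausted cells, was at 8.96, 12.9, and 12.5 CPM in TEff and 3.18, 3.01, and 1.84 CPM in TRM-like samples, and fell with a log2 fold change of -2.09 (SE 0.25, adjusted p = 0.00308 from edgeR). Both calls held in all 18 alternatives. *Prdm1*, which encodes BLIMP-1, had the next smallest p-value and did not pass (log2 fold change -0.47, SE 0.13, adjusted p = 0.109 from edgeR). *Tox*, a driver of the exhausted state, was at 10.8 to 11.3 CPM in TEff and 10.4 to 10.8 CPM in TRM-like samples (log2 fold change -0.05, SE 0.14, adjusted p = 0.915 from edgeR), and *Tox2* had too few samples with a count to be tested.

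A further 16 genes for other inhibitory receptors or inhibitory surface enzymes gave 5 higher and 1 lower in TRM-like cells, with a median of 0.11. This share of 37.5% stands beside 3.01% over all genes tested. *Nt5e* and *Entpd1*, which encode CD73 and CD39, the enzymes that make extracellular adenosine, both rose. *Nt5e* went from 19.1, 28.7, and 20.8 CPM to 135, 146, and 121 CPM (log2 fold change 2.55, SE 0.18, adjusted p = 0.000209 from edgeR) and *Entpd1* by 1.00 (SE 0.13, adjusted p = 0.00458 from edgeR). The receptor gene *Cd244a* (2B4) rose from 14.1, 20.8, and 19.5 CPM to 119.6, 110.5, and 60.5 CPM, a log2 fold change of 2.42 (SE 0.27, adjusted p = 0.00198 from edgeR).

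*Cd96* and *Pvrig*, whose products bind the nectin family like TIGIT, rose by 1.48 (SE 0.23, adjusted p = 0.0107 from edgeR) and 2.09 (SE 0.44, adjusted p = 0.0418 from edgeR) on the log2 scale. *Cd5*, a brake on T cell receptor signalling, fell by 0.88 (SE 0.14, adjusted p = 0.0132 from edgeR). *Nt5e* and *Cd244a* were past the threshold in all 18 alternatives. *Entpd1* lost the call without TEff replicate 1 (0.94), *Cd96* without any of TEff replicates 1, 2, and 3 (1.47 to 1.51), and *Cd5* without TEff replicates 1, 2, or 3 or TRM-like replicate 1 (-0.92 to -0.83). *Pvrig* kept it only without TRM-like replicate 3 (2.44) and lost it without any other single library (1.74 to 2.38, adjusted p of 0.110 to 0.212) and with TRM-like replicate 3 alone (0.86). *Cd300a* had 0 counts in all 3 TEff samples and 16 in the TRM-like samples together, and did not pass the test.

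**Figure D4:**
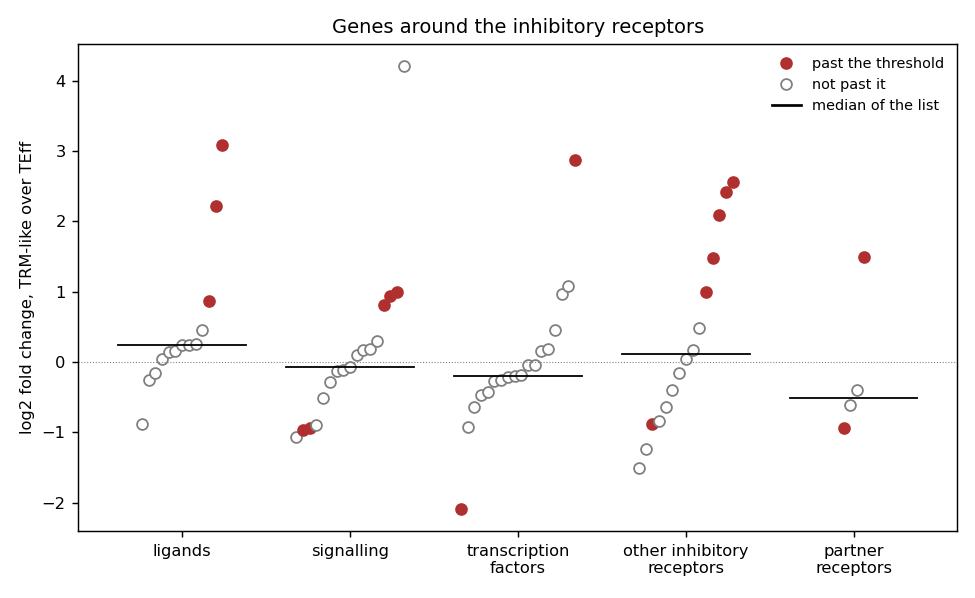
Log2 fold change of TRM-like over TEff (y axis) for the tested genes of 5 lists around the receptors (ligands, signalling, transcription factors, other inhibitory receptors, and partner receptors), with 1 point a gene, filled red where past the threshold, and a line at the list's median. The medians lie between -0.51 and 0.24, and *Cd300a*, with 0 counts in every TEff sample, is counted in its list's median but not drawn.

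The genes whose log2 CPM followed each receptor most closely over the 6 samples were listed as a description, from the 14822 genes that reached 10 counts in all 6 samples. The points are 6 libraries in 2 groups, and the closest genes had r of 0.989 to 0.9996 for each of the 9 receptors. *Havcr2* was followed by *Prf1*, which encodes perforin (Pearson's r = 0.996), and *Plxna3* (r = 0.996), and *Prf1* fell from 42.2, 30.6, and 46.4 CPM to 7.72, 6.03, and 4.89 CPM (log2 fold change -2.67, adjusted p = 0.000438 from edgeR). *Btla* was followed by *Igf1r* (r = 0.997) and *Disp1* (r = 0.995), and *Ctla4* by *Zbed3* (r = 0.999) and *Gpr183* (r = 0.999).

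For the receptors in which TRM-like replicate 3 stood apart, the closest genes carried the same division, which follows from choosing them by correlation. *Cd160* was followed by *Tcirg1* (r = 0.9996) and *Kantr* (r = 0.999), *Cd101* by *Bloc1s1* (r = 0.999) and *Arih2* (r = 0.999), and *Pdcd1* by *Sdcbp2* (r = 0.998) and *Gm12596* (r = 0.996). *Lag3* was followed by *Neurl2* (r = 0.998) and by *Cxcr6*, a chemokine receptor gene of resident T cells (r = 0.998), which was at 301, 366, and 306 CPM in TEff and 504, 540.2, and 253 CPM in TRM-like samples. *Vsir* was followed by *Hcst* (r = 0.996) and *Idnk* (r = 0.996). *Tigit*, in which the TRM-like samples stepped down from replicate 1 to replicate 3, was followed by *Arid4b* (r = 0.989).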

How the data were processed

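RNA from OT-I CD8+ T cells was sequenced in 3 TEff and 3 TRM-like samples, grouped by the sample labels. The authors trimmed reads with cutadapt 4.8, mapped and counted them with Rsubread on GENCODE genes (GRCm39 build), and deposited for every gene its raw counts, without normalization, and its length. How strand and reads with several matches were treated is not given in the sources used here. The study removed a batch effect for its plots without naming the batch, so none was removed here.

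Gene symbols, coordinates, and promoter windows came from a later GENCODE annotation of GRCm39 and its genome, and 56620 of 57126 genes were matched. CPM used edgeR's TMM effective library sizes. Genes that had 1 count or more in 3 or more samples were tested with edgeR 4.0.16 (glmQLFit and glmQLFTest, R 4.3.3), with Benjamini-Hochberg adjustment over all of them. The standard error was the log2 fold change divided by the square root of F. The count totals per sample are in the ranges given with the libraries.

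The members, lists, and tests were chosen with earlier results of these data known. Named genes were all 9 receptors, every gene of each other list past the threshold (or those of smallest p up to 3), 4 partner receptors, and the 2 genes of highest correlation with each receptor (log2 CPM, prior count 2). One gene chosen by this rule is not reported here. *Cd274*, *Pdcd1lg2*, *Cd80*, *Fgl1*, *Igsf11*, *Ptpn6*, *Ptpn11*, *Tox*, *Tox2*, and *Cd300a* were added after their values were seen. Alternatives were DESeq2 1.42.0, limma-voom (limma 3.58.1), DESeq2 size factors, library totals, other filters, glmTreat, a replicate block, and each sample left out. Another, chosen after seeing the data, had TRM-like replicate 3 as the only TRM-like sample, where it is assumed to vary as the TEff samples do. The last was the main fit by adjusted p alone, without the fold cutoff, in which a called gene cannot lose its call. On simulated data with this design and 25266 genes, edgeR recovered 56% of 2-fold and 98% of 4-fold changes, with 5.52% false among its calls. DESeq2 recovered 75% and 99%, with 15.1% false among its calls. Only well-counted genes were changed, so the recovered shares do not cover genes with few counts. The simulated counts were drawn independently for each sample, so no library stood apart as TRM-like replicate 3 does. These rates may therefore not hold for the real data.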

Additional observations from a re-analysis of the deposited data

How the results depend on the processing

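The 3 receptor genes called lower stayed 3 or became 4 under the 18 alternatives. The number called higher, 1, was 2 with DESeq2, DESeq2's size factors, library totals, no filter, and the replicate block (alone or with a minimum of 10 counts in every sample), 0 with limma-voom, that minimum alone, glmTreat at 1.5-fold, and TRM-like replicate 3 alone, and 0 to 3 with 1 sample left out. Called ligand genes numbered 1 with glmTreat, and 1 to 5 with 1 sample left out. Signalling genes numbered 8 with DESeq2, no filter, and the replicate block, 0 with glmTreat, and 0 to 9 with 1 sample left out. Transcription factor genes numbered 4 with DESeq2, 5 with no filter, 6 with the replicate block, 4 with that block and minimum, and 2 to 5 with 1 sample left out. Other inhibitory receptor genes numbered 2 with glmTreat and 2 to 9 with 1 sample left out.

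Over all genes, the 786 calls became 1264 with DESeq2, 1868 with no filter, 339 with glmTreat, 2034 with the replicate block, and 263 to 3579 with 1 sample left out, the highest without TRM-like replicate 3. For the 9 receptors and the genes named from the other lists, 448 alternative values kept their direction and their side of the threshold. These include the values by adjusted p alone, which come from the main fit itself. A further 72 lost a call, 16 gained one, and 1 reversed, which was *Lag3*, at -0.42 with TRM-like replicate 3 alone. The cause was not tested.

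To check for pairing, deviations from the group mean were correlated between same-numbered samples over 14822 genes, giving -0.29, 0.31, and 0.39 for numbers 1, 2, and 3, while TEff replicate 2 and TRM-like replicate 1 had 0.52. TEff replicate 2 thus did not correlate best with its own number, while TRM-like replicates 2 and 3 did. Deviations from a mean of 3 samples are not independent, so these correlations cannot decide whether the samples were paired. The sample labels give only a number in common. With the replicate block, *Pdcd1* passed the test at -0.62 (adjusted p = 0.0102 from edgeR), but not with the block and at least 10 counts in each sample (-0.61, adjusted p = 0.150). The prior degrees of freedom became infinite with the block and with no filter. With 3 samples a group and no library standing apart, 56% of the simulated 2-fold changes were recovered. The changes of *Pdcd1*, *Lag3*, *Vsir*, and *Tigit* were smaller than 2-fold, a size that was not simulated.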

Other observations

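Several genes of NK-type receptors differed among the TRM-like samples more than between the groups. These genes were chosen after their values were seen, from the lists above. *Klrc1*, which encodes the inhibitory receptor subunit NKG2A, was at 140, 149, and 144 CPM in TEff samples and at 276, 281, and 50.3 CPM in TRM-like replicates 1, 2, and 3. It was above TEff in the first 2 TRM-like samples and below it in the other. *Sh2d1b1*, which encodes the adaptor EAT-2 of SLAM-family receptors, was at 0.18, 0.35, and 0.11 CPM in TEff and at 5.28, 6.95, and 0.09 CPM in TRM-like samples. *Klrb1c*, which encodes NK1.1, was at 9.78, 21.9, and 11.8 CPM in TEff and at 8.55, 6.68, and 0.09 CPM in TRM-like samples. None of these 3 genes passed the test over all 6 samples (adjusted p = 0.716, 0.103, and 0.465 from edgeR).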
